A study of Mus musculus with 63 samples.

Results

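Transcripts of 9 tuft cell genes (Dclk1, Trpm5, Pou2f3, Gnat3, Avil, Alox5ap, Il25, Gfi1b and Ptgs1) were followed across 63 bulk RNA libraries from small intestinal tumours of the mouse. The genes were chosen by symbol, as markers of 1 cell type, and all 9 were found among the 24766 genes of the expression table. Tuft cells are rare chemosensory cells of the gut epithelium. They sense luminal compounds through a taste-like signalling cascade that ends in the cation channel TRPM5, and they answer with the cytokine IL-25 and with lipid mediators, leukotrienes and prostaglandins, that act on type 2 immune cells. The POU factor POU2F3 is required for the cells to form.

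The tumours came from 2 C57BL/6 mice, 1 female and 1 male, that carried Villin-creERT2, 1 floxed allele of Apc and the R26R-Confetti reporter. Every tumour had been through the same tamoxifen (4 mg) and the same mutagen, N-ethyl-N-nitrosourea (ENU, 200 mg per kg, given 10 days later), and no untreated tissue was analysed here. Cre was driven by the Villin promoter, so recombination was aimed at the epithelium, while the libraries hold whatever other cells were dissected with it. Each mouse gave 10 divided (heterotypic) tumours, whose major clone (the larger) and minor clone (the smaller) had been separated by Confetti colour under a microscope and sequenced apart, 20 libraries of each class. The other 23 libraries are whole tumours that were not divided, 10 of the female and 13 of the male. Labels name the stretch of small intestine as SI10, SI20 or SI30, the last of these for no more than 2 divided tumours, both female. Sex and mouse cannot be told apart, and tumours of a mouse, not mice, are the replicates of every test below.

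The values are normalised counts, gene-level read estimates that the authors scaled between libraries, and they summed to between 26140200 and 45909900 per library. The number of reads behind a single value is unknown, so no counting interval is given. Intestinal epithelium was present throughout: Epcam, which encodes an epithelial adhesion protein, lay between 31001 and 74424 normalised counts. Differences were tested with limma on log2(normalised count + 1) over all genes with a mean of at least 10 in the libraries compared, with Benjamini-Hochberg adjustment and a threshold of 0.05. Differences are on this log2 scale, which understates the change of low genes. In bulk tissue, fewer tuft cells, less RNA per tuft cell and a change in transcript from other cells cannot be told apart.

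Transcripts of these marker genes were present in the tumours, and 1 of the 9 genes, Avil, was at a far higher level than the others. Which cells made them was not tested. Over tumours Avil had a median Pearson's r of 0.01 with 25 further tuft cell genes, given below. With 10 genes of fibroblasts and smooth muscle the median was 0.51, so its level cannot be read as that of tuft cells. Divided by the length of the canonical transcript, Avil had a median of 2129 normalised counts per kb over the 63 libraries (47.0 to 4109). Avil encodes advillin, an actin-bundling protein of the villin family. The median of Avil per kb was 16.7 times that of the next gene, Ptgs1, and Avil was the higher of the pair in 62 of 63 libraries. Ptgs1, which encodes the prostaglandin synthase COX-1, had a median of 127 per kb, and Trpm5 had one of 117 per kb. Ptgs1 and Trpm5 could not be ordered, since Ptgs1 was higher in only 37 of 63 libraries. Alox5ap encodes FLAP, the protein that presents arachidonic acid to 5-lipoxygenase for leukotriene synthesis, and had a median of 37.9 per kb. Dclk1, a microtubule-associated kinase widely used to stain tuft cells, had a median of 31.9 per kb, and Pou2f3 one of 23.8 per kb. These neighbours overlapped as well, with Alox5ap above Dclk1 in 42 libraries and Dclk1 above Pou2f3 in 43. Gfi1b (a transcriptional repressor, median 2.54 per kb), Gnat3 (the taste G-protein subunit gustducin, median 2.33 per kb) and Il25 were the lowest.

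The 3 lowest genes were close to the detection limit. Gnat3 was listed at 0 in 11 libraries and reached 43.3 normalised counts at most. Gfi1b was at 0 in 3 libraries and reached 46.4. Il25 was listed at 0 in 38 of 63 libraries, and its highest value was 6.33 (female mouse, tumour 23, minor clone). These genes did not reach the mean of 10 and entered no test, so that 6 of the 9 genes were tested in each comparison and the other 3 are given as values.

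**Figure D1:**
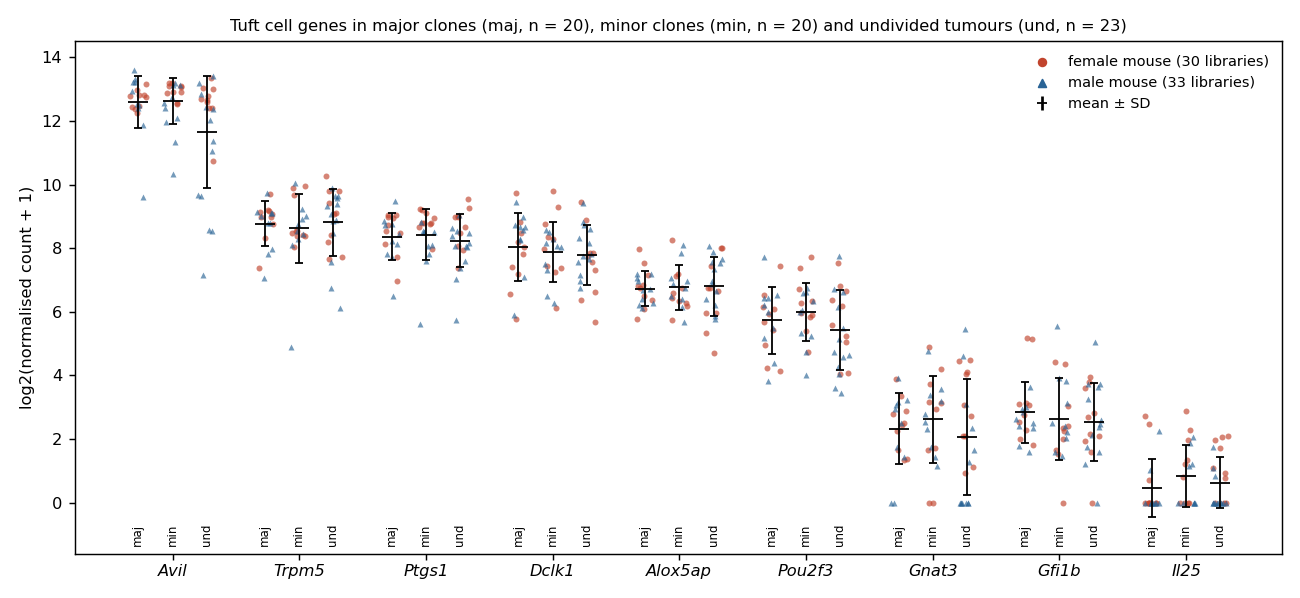
Log2(normalised count + 1) of the 9 genes (x axis) in every library of major clones, minor clones and undivided tumours, with circles for the female and triangles for the male mouse and bars for mean ± SD. The 3 classes overlapped for every gene, and the undivided tumours of the male mouse reached the lowest values of Avil.

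The genes lie apart on the genome (GRCm39, Gencode M39). Pou2f3 (ENSMUSG00000032015) is on chromosome 9, 43035228 to 43121666, minus strand. Dclk1 (ENSMUSG00000027797) is on chromosome 3, 55149618 to 55446493, plus strand. Trpm5 (ENSMUSG00000009246) is on chromosome 7, 142622890 to 142648379, minus strand. Avil (ENSMUSG00000025432) is on chromosome 10, 126836578 to 126856863, plus strand, where an exon of its canonical transcript overlaps Tsfm, a mitochondrial translation factor gene on the opposite strand. The library protocol kept strand information. Over tumours, Avil and Tsfm ran in opposite directions (Pearson's r = -0.49, Spearman's rho = -0.53, n = 43). Of the other genes, Ptgs1 (ENSMUSG00000047250) and Gfi1b (ENSMUSG00000026815) are both on chromosome 2, at 36120438 and 28499462, Alox5ap (ENSMUSG00000060063) and Gnat3 (ENSMUSG00000028777) on chromosome 5, at 149196003 and 18167547, and Il25 (ENSMUSG00000040770) on chromosome 14, at 55170152. Promoter windows of RefSeq (GRCm38.p6, 250 bases before to 50 after the start) were at hand for 6 of the 9 genes, with 2 windows for Dclk1. The octamer of POU factors, ATGCAAAT on either strand, was in 0 of these windows and in 1.74% of all 32851 windows of the table.

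The first comparison asked whether the clones of a divided tumour differ in tuft cell transcripts. They did not do so detectably: 0 of 6 tested genes passed the threshold between major and minor clones, where limma with tumour as a block called 1.14% of all genes tested (0.67% higher and 0.475% lower in major clones). None of the 6 (0 genes) had an unadjusted p under 0.05, in limma or in an exact signed-rank test. Of all genes tested, 3680 of 16428 had one in limma.

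Dclk1 lay between 53.3 and 853 normalised counts in major clones (median 310) and between 67.9 and 887 in minor clones (median 265). The ranges overlapped almost entirely, and the major clone was the higher in 12 of 20 tumours. The mean difference was 0.14 (SE 0.22, 95% interval -0.31 to 0.59, limma adjusted p = 0.744). Trpm5 lay between 133 and 858 in major clones (median 512) and between 28.9 and 1055 in minor clones (median 370). The major clone was the higher in 10 of 20 tumours, with a mean difference of 0.14 (SE 0.18, 95% interval -0.23 to 0.51, limma adjusted p = 0.680). Pou2f3 lay between 13.0 and 211 in major clones (median 61.0) and between 15.2 and 209 in minor clones (median 64.4). Of the 6 genes it had the difference farthest from 0, -0.26 (SE 0.26, 95% interval -0.81 to 0.28, limma adjusted p = 0.585), and the minor clone was the higher in 11 of 20 tumours.

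Single tumours differed far more than the mean. In tumour 26 of the female mouse Pou2f3 stood at 17.7 in the major and 166 in the minor clone, and in tumour 29 of the male mouse at 13.0 and 94.6. In tumour 22 of the male mouse the order was the opposite, with 211 in the major and 106 in the minor clone. Dclk1 in tumour 28 of the female mouse stood at 53.3 in the major and 250.0 in the minor clone. In tumour 31 of the male mouse Dclk1 was at 509 and 180. Such gaps ran both ways, and the SD of the difference over tumours was 1.06 for Dclk1 and 1.25 for Pou2f3.

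The mediator genes were closer to equal. Ptgs1 lay between 88.8 and 713 in major clones (median 365) and between 47.7 and 602 in minor clones (median 392), with a difference of -0.05 (SE 0.13, 95% interval -0.33 to 0.22, limma adjusted p = 0.844). Alox5ap lay between 53.5 and 251 in major clones (median 104) and between 50.6 and 304 in minor clones (median 101). Its difference was -0.04 (SE 0.17, 95% interval -0.39 to 0.32, limma adjusted p = 0.921). Avil lay between 779 and 12461 in major clones (median 6998) and between 1279 and 9356 in minor clones (median 7585), with a difference of -0.01 (SE 0.14, 95% interval -0.30 to 0.28, limma adjusted p = 0.971). The clones overlapped over nearly the whole range of all 3 genes.

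The 3 low genes gave no order of clones either. Gnat3 was higher in the minor clone of 11 and in the major clone of 9 tumours. Gfi1b was split evenly, 10 and 10. Il25 was at 0 in 15 of 20 major and 10 of 20 minor clones, was higher in the minor clone of 8 and in the major clone of 5 tumours, and was at 0 in both clones of 7 tumours.

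**Figure D2:**
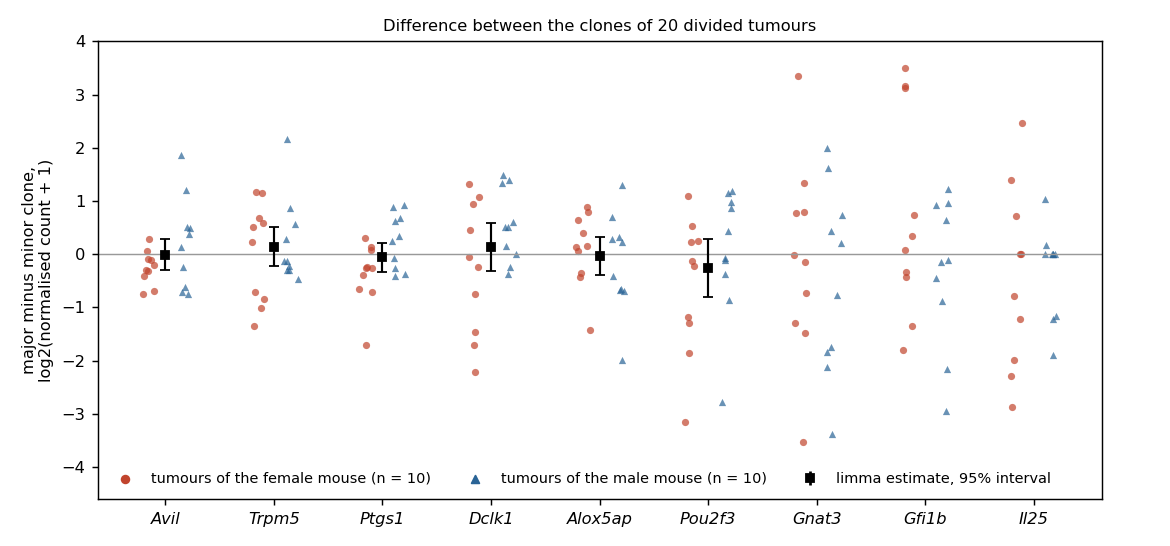
Major minus minor clone on the log2(normalised count + 1) scale (y axis) for the 9 genes, 1 point per divided tumour (circles, female mouse; triangles, male mouse), with limma's estimate and 95% interval in black for the 6 tested genes. Points lie on both sides of 0 for every gene, and all 6 intervals contain 0.

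The direction of the clone difference was set side by side in the mice. Ptgs1 was higher in the minor clone in 7 of 10 tumours of the female mouse (mean -0.37, SD 0.57) and in the major clone in 6 of 10 of the male mouse (mean 0.26, SD 0.51). The difference between the mice was 0.63 (SE 0.23, limma p = 0.0140, adjusted p = 0.655). Of 10 genes of fibroblasts and smooth muscle, 9 had estimates above 0 for the same difference between mice (median 0.68, 0 called and 0 with an unadjusted p under 0.05), as had 15 of 17 myeloid markers (median 0.25, 2 with an unadjusted p under 0.05, 0 called). Their part in the difference of Ptgs1 was not tested. Dclk1 was higher in the minor clone in 6 of 10 tumours of the female mouse (mean -0.26, SD 1.24) and in the major clone in 8 of 10 of the male mouse (mean 0.54, SD 0.68), and the mice differed by 0.80 (SE 0.42, limma adjusted p = 0.680). Avil was higher in the minor clone in 8 of 10 tumours of the female mouse (mean -0.25, SD 0.32) and in the major clone in 6 of 10 of the male mouse (mean 0.23, SD 0.86), a difference of 0.48 (SE 0.28, limma adjusted p = 0.700). In this comparison 0 of 6 genes passed, limma called 0% of all genes (1228 of 16428 had an unadjusted p under 0.05), and Ptgs1 was the only one of the 6 with an unadjusted p under 0.05. Between tumours of SI20 and SI10 the clone difference was also called for 0 of 6 genes, against 0% of all genes and 672 genes at an unadjusted p under 0.05. There the estimate farthest from 0 was again that of Pou2f3 (-1.14, SE 0.56, limma adjusted p = 0.998).

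The clones of a tumour resembled each other to differing degrees in these genes. Over 20 divided tumours the log2 values of both clones correlated at 0.68 for Ptgs1 (Spearman's rho 0.58), at 0.61 for Trpm5 (rho 0.35) and at 0.46 for Dclk1 (rho 0.38). Over all 16428 genes tested the median was 0.32, with quartiles at 0.13 and 0.49. For Pou2f3 the value was 0.19 (rho 0.25) and for Alox5ap 0.18 (rho 0.25). Dclk1, Pou2f3 and Alox5ap thus lay between the quartiles of all genes. Avil had an r of 0.63 but a rho of 0.13. Without the 2 tumours farthest from the median the r of Avil was -0.23 and that of Trpm5 0.28, while that of Ptgs1 was 0.56. The r of Avil and of Trpm5 rested on those tumours.

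In the male mouse both clones of tumour 19 were among the lowest of the 63 libraries in several tuft cell genes. Its minor clone had the lowest Trpm5 (28.9) and the lowest Ptgs1 (47.7), with Pou2f3 at 15.2, Dclk1 at 76.3 and Avil at 1279. Its major clone had Trpm5 at 133, Ptgs1 at 88.8, Dclk1 at 58.6 and Avil at 779, while Alox5ap at 83.2 and Gfi1b at 4.71 were not among the lowest. At the other end, in the female mouse the minor clone of tumour 23 had the highest Dclk1 (887), Alox5ap (304) and Il25 (6.33) of all libraries and the third highest Pou2f3 (209) and Trpm5 (1000.3). Its major clone had the second highest Dclk1 (853), with Pou2f3 at 91.8 and Il25 at 0.

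The second comparison set undivided tumours against each class of clone. Both comparisons use the same 23 undivided tumours and are therefore not independent. Avil had the lowest p in each, and in neither did it pass: 0 of 6 genes were called against minor clones, where limma called 3.7% of all genes (2.27% higher and 1.43% lower), and 0 of 6 against major clones, where it called 0.0121% (0.00606% in each direction). In each comparison Avil was the only one of the 6 with an unadjusted p under 0.05. Of all genes tested, 3226 of 16491 had such a p against minor clones and 1973 of 16510 against major clones.

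Avil lay between 142 and 10792 normalised counts in undivided tumours (median 5472), a range that contained that of the minor clones. It was lower in undivided tumours than in minor clones by an estimated 0.89 on the log2 scale (estimate -0.89, SE 0.37, 95% interval -1.64 to -0.14, limma p = 0.0219, adjusted p = 0.166). Against major clones the estimate was also -0.89 (SE 0.40, 95% interval -1.69 to -0.09, limma p = 0.0295, adjusted p = 0.381). All 10 genes of fibroblasts and smooth muscle had estimates below 0 against major clones as well (median -0.71, 5 with an unadjusted p under 0.05, 0 called), while 4 of 10 were above 0 against minor clones (median -0.05), and their part in the difference of Avil was not tested. The low values were those of the male mouse. Under 1000 normalised counts lay 5 of 13 undivided tumours of the male mouse, tumours 15 (142), 2 (372), 18 (381), 5 (801) and 17 (814), and none (0 of 10) of the female mouse. Among the 40 clones only the major clone of tumour 19 of the male mouse was under 1000. In the male mouse alone the estimate was -1.34 (SE 0.64) against minor and -1.57 (SE 0.67) against major clones, and in the female mouse alone -0.37 (SE 0.22) and -0.12 (SE 0.23).

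The other genes differed less. Pou2f3 lay between 9.82 and 215 in undivided tumours (median 36.8), with an estimate of -0.54 against minor clones (SE 0.33, 95% interval -1.19 to 0.12, limma adjusted p = 0.367) and of -0.29 against major clones (SE 0.35, limma adjusted p = 0.735). Dclk1 lay between 50.2 and 696 (median 217), with estimates of -0.11 against minor and -0.28 against major clones (SE 0.28 and 0.30). Trpm5 lay between 68.4 and 1242 (median 544), with estimates of 0.21 and 0.06 (SE 0.32 and 0.27). Alox5ap, between 24.9 and 269 (median 107), and Ptgs1, between 52.2 and 742 (median 331), had estimates between -0.13 and 0.06 in the 2 comparisons. Limma's adjusted p was 0.70 or above for these 4 genes in both comparisons. Gnat3 was at 0 in 7 of 23 undivided tumours, all of the male mouse, and in 2 of 20 clones of each class. Il25 was at 0 in 13 of 23 and Gfi1b in 2 of 23 undivided tumours.

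The third comparison asked whether the tuft cell genes follow the segment of the small intestine. In undivided tumours 0 of 6 genes were called between SI20 and SI10 (limma called 0.17% of all genes, 0.0182% higher and 0.151% lower), and 1 of the 6, Pou2f3, had an unadjusted p under 0.05. So had 1258 of all 16511 genes tested. In divided tumours, with the mean of both clones as 1 value a tumour, 0 of 6 were called (0.28% of all genes, 0.183% higher and 0.0973% lower), and 2, Avil and Alox5ap, had an unadjusted p under 0.05. There 2358 of all 16436 genes tested had one.

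Pou2f3 in undivided tumours lay between 15.5 and 215 in SI10 (median 76.6, n = 12) and between 9.82 and 100.4 in SI20 (median 32.4, n = 11). The estimate was -0.97 (SE 0.47, 95% interval -1.94 to -0.01, limma p = 0.0485, adjusted p = 0.652). In divided tumours the estimate was -0.29 (SE 0.39, limma adjusted p = 0.730). Alox5ap in divided tumours was lower in SI20 by an estimate of -0.45 (SE 0.19, 95% interval -0.85 to -0.04, limma p = 0.0325, adjusted p = 0.314). In undivided tumours its estimate was -0.41 (SE 0.36, limma adjusted p = 0.798). Alox5ap is also made by myeloid cells, and 16 of 17 myeloid markers had estimates below 0 in the same divided tumours, 7 of them with an unadjusted p under 0.05 and 0 called (median -0.49, against 0.01 for all genes). Their part in the difference of Alox5ap was not tested.

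Avil had estimates in the opposite direction, higher in SI20. In undivided tumours it lay between 142 and 8320 in SI10 (median 3146) and between 381 and 10792 in SI20 (median 6202), with an estimate of 1.14 (SE 0.59, 95% interval -0.08 to 2.36, limma p = 0.0649, adjusted p = 0.673). In divided tumours the estimate was 0.71 (SE 0.30, 95% interval 0.07 to 1.34, limma p = 0.0313, adjusted p = 0.312), and without tumour 19 of the male mouse 0.35. The values are again given by mouse, and whether the segment difference differs between the mice was not tested. In minor clones of the male mouse the 4 libraries of SI10 (1279 to 4408) were all below the 6 of SI20 (5395 to 9265), while in the female mouse those of SI10 (5880 to 8854, without tumour 22) and SI20 (5990 to 9311) overlapped. In major clones of the male mouse SI10 (779 to 9487) and SI20 (5377 to 12461) overlapped too. So did the segments in its undivided tumours (142 to 7375 and 381 to 10792). The share of all genes that separate as Avil did in the minor clones is not given here. In the male mouse alone the estimate for divided tumours was 1.31 (SE 0.39, limma adjusted p = 0.286) and in the female mouse alone -0.14 (SE 0.18). The segment difference did not differ detectably between divided and undivided tumours for any of the 6 genes (0 called, 0% of all genes, 267 genes at an unadjusted p under 0.05), and for Avil the interval of that difference ran from -2.01 to 1.15.

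**Figure D3:**
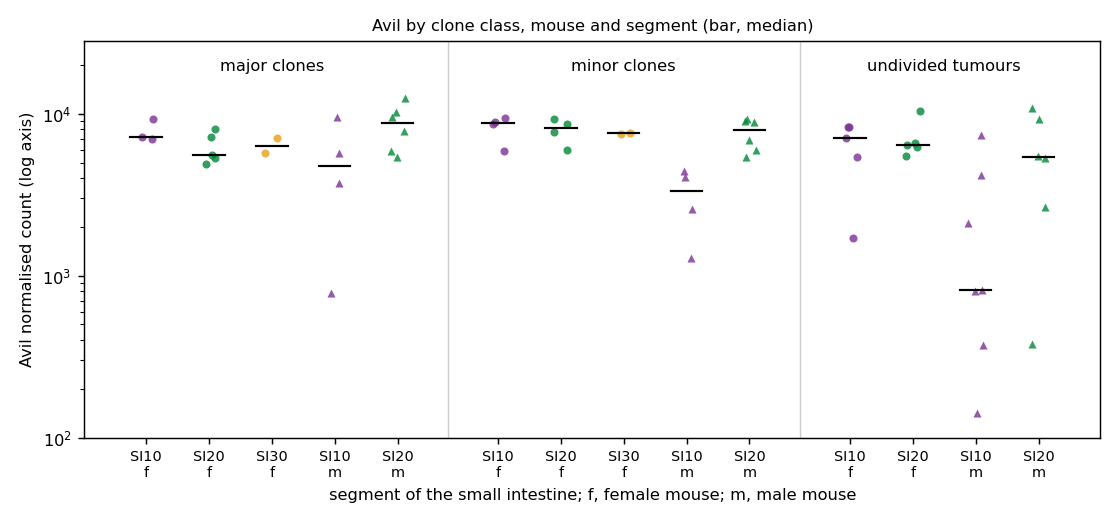
Avil normalised counts on a log axis in every library, by clone class, mouse and segment (SI10 violet, SI20 green, SI30 orange), with the median as a bar. In the male mouse SI10 reached down to 142 in undivided tumours, while all libraries of the female mouse but 1 (1698) were at 4892 or above.

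In the 2 divided tumours of SI30, both of the female mouse, Avil lay at 5687 and 7041 in major and at 7547 and 7623 in minor clones. Dclk1 there was at 146 and 170 in major and at 67.9 and 172 in minor clones. With 2 tumours of 1 mouse this segment was not tested.

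Other genes of tuft cells were read in the same way. Of 29 further tuft cell genes in the table, 24 were tested between major and minor clones. Plcg2, which encodes a phospholipase C of immune and tuft cells, was higher in major clones (0.36, SE 0.07, limma adjusted p = 0.0303) and was the only one called. The median of the 24 was 0.10, against 0.01 for all genes, and 17 lay above 0. The next lowest p were those of Gnb3 (-1.23, SE 0.35, limma adjusted p = 0.0670) and Gng13 (-0.93, SE 0.33, limma adjusted p = 0.101), the beta and gamma subunits of the G protein that works with gustducin. All 17 myeloid markers had estimates above 0 in the same comparison (median 0.32, 10 with an unadjusted p under 0.05, 0 called), with summed levels of 3605 to 12401 in major and 2938 to 14362 in minor clones. Plcg2 is expressed by these cells too, and their part in its difference was not tested.

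Between undivided tumours and minor clones 0 of 25 further tuft cell genes were called, with the lowest adjusted p at 0.0649 for Plcg2 (0.32, SE 0.10), 0.0827 for Ptpn6 (0.27, SE 0.09) and 0.138 for Alox5 (0.55, SE 0.22), the 5-lipoxygenase that works with FLAP. Against major clones 0 of 25 were called (Fyb 0.55, SE 0.20; Itpr3 -0.31, SE 0.13; lowest adjusted p 0.335). Between SI20 and SI10 the further tuft cell genes had mostly negative estimates in both kinds of tumour: 23 of 25 had estimates below 0 in undivided tumours (median -0.46, against -0.00038 for all genes) and 19 of 24 in divided tumours (median -0.29, against 0.01). None of them was called (0 genes, limma). Sh2d7 (-0.92, SE 0.38), Bmx (-1.33, SE 0.59) and Gng13 (-1.24, SE 0.56) had the lowest p in undivided tumours, and Gng13 (-1.05, SE 0.35), Fyb (-0.58, SE 0.24) and Ly6g6f (-0.99, SE 0.44) in divided tumours, with adjusted p of 0.587 or above and of 0.228 or above. Avil, with estimates of 1.14 and 0.71, ran the other way, and it was not alone. Of the 6 tested genes of the 9, 2 had estimates above 0 in undivided tumours (median -0.30) and 4 in divided tumours (median 0.12). In the same undivided tumours all 12 enteroendocrine genes had estimates below 0 (median -0.86, 8 with an unadjusted p under 0.05, 0 called), and in the divided tumours so had the 16 myeloid markers given above. Their part in the estimates of the tuft cell genes was not tested.

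Genes of the type 2 immune circuit that tuft cells address (11 in the table, among them Il1rl1, Siglecf and Gata3) gave 0 calls in all 5 comparisons of classes and segments. The lowest adjusted p was 0.116, for Rora in undivided tumours against minor clones (-0.74, limma p = 0.0104), followed there by Siglecf (0.61, SE 0.26) and Prg2 (0.56, SE 0.33).

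Genes of enteroendocrine cells, another rare secretory type, were called in 2 of the 5 comparisons of classes and segments. Of 11 tested, 3 were called higher in major than in minor clones, Chgb (0.89, SE 0.17), Tph1 (0.72, SE 0.15) and Neurog3 (0.92, SE 0.22), and 6 were called higher in undivided tumours than in minor clones, from Sct (0.83, SE 0.21) to Tph1 (1.13, SE 0.21). In undivided tumours against major clones and between segments 0 enteroendocrine genes were called. Of the tuft cell genes, Plcg2 alone was called, between major and minor clones. Whether the groups of genes differ from each other was not tested. Of the lists of mast cells and basophils, megakaryocytes and platelets, enteric neurons and glia, fibroblasts and smooth muscle, myeloid cells and intestinal epithelium, 2 genes were called in these 5 comparisons. Tubb3, a neuronal tubulin, was lower in undivided tumours than in minor clones (-1.35, limma adjusted p = 0.0193), and Gp1bb, a platelet glycoprotein, was higher in SI20 than in SI10 of divided tumours (0.96, limma adjusted p = 0.0265).

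Over tumours, the levels of the tuft cell genes varied partly together. Levels were averaged over both clones of a divided tumour and centred within mouse, which gives 43 tumours. The points share libraries and their scaling, and the correlations are given as a description. Of 36 pairs of the 9 genes, 35 had an r above 0 (median 0.31, from -0.04 to 0.76). The median was 0.42 in the 20 tumours of the female and 0.29 in the 23 of the male mouse, and 0.35 in divided and 0.32 in undivided tumours.

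Pou2f3 was in the 3 closest pairs. It correlated at 0.76 with Gnat3 (rho 0.77, and 0.72 without the 2 most distant tumours), at 0.66 with Alox5ap (rho 0.62), at 0.64 with Dclk1 (rho 0.63) and at 0.59 with Gfi1b (rho 0.55). The pair of Pou2f3 and Gnat3 had an r of 0.56 in the female and 0.86 in the male mouse. In the male mouse the 7 undivided tumours in which Gnat3 was at 0 had between 9.82 and 34.2 normalised counts of Pou2f3, and the 3 in which Gnat3 was highest, tumours 17 (43.3), 3 (23.6) and 5 (7.52), had Pou2f3 at 105, 215 and 97.7. Of 25 further tuft cell genes, 24 correlated above 0 with Pou2f3 (median 0.49, against 0.02 over all genes), with Rgs13, a regulator of G-protein signalling, as the highest at 0.81. With Alox5ap the median was also 0.49, and with Dclk1 it was 0.43.

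Avil, Trpm5 and Ptgs1 had lower correlations with Pou2f3. The r was 0.18 for Avil, 0.20 for Trpm5 and 0.35 for Ptgs1. With Dclk1 the r was 0.59 for Ptgs1 and 0.44 for Trpm5, above that of Dclk1 with Gnat3 (0.37), and 0.29 for Avil. Avil had a median r of 0.01 with the 25 further tuft cell genes, and 13 of them lay above 0. In undivided tumours of the male mouse the 5 lowest values of Avil stood beside values of Pou2f3 from 24.1 to 105, and in tumour 17 Avil was at 814 while Gnat3 reached its highest value of all libraries. Ptgs1 is made by many stromal and blood cells. It correlated at a median of 0.65 with 10 genes of fibroblasts and smooth muscle (highest Col1a2, 0.79) and 0.46 with 17 myeloid markers (highest Itgam, 0.80), against 0.26 with the further tuft cell genes. Trpm5 correlated at a median of 0.56 with 8 genes of the intestinal epithelium (highest Krt20, 0.70), against 0.22 with the further tuft cell genes. The part of other cell types in Ptgs1 and Trpm5 was not tested.

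**Figure D4:**
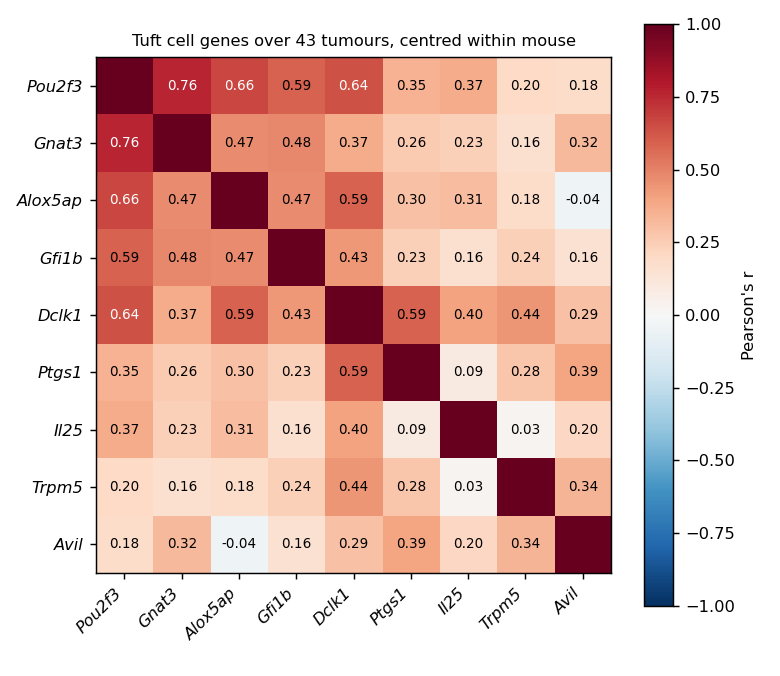
Pearson's r between the 9 genes over 43 tumours (log2 values, mean of both clones of a divided tumour, centred within mouse), with red for positive and blue for negative values. The highest values are those of Pou2f3 with Gnat3 (0.76), with Alox5ap (0.66) and with Dclk1 (0.64), followed by Dclk1 with Ptgs1 (0.59), and the row of Avil lies between -0.04 and 0.39.

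The genes most like the mean z score of the 9 genes were searched among 16483 other genes. Pik3r5, a regulatory subunit of phosphoinositide 3-kinase gamma, came first (r = 0.84, rho = 0.83), followed by the transcription factor Spib (r = 0.82), Tspan6 (r = 0.82), Kalrn (r = 0.77), Strip2 (r = 0.77), Rab7b (r = 0.76), the homeobox gene Hmx3 (r = 0.75), Nckap5 (r = 0.74), Vav1 (r = 0.73) and Sh2d7 (r = 0.73). Spib, Hmx3 and Sh2d7 were among the further tuft cell genes listed, and 8 of the 25 stood among the 100 most similar genes. Their median r with the score was 0.47, against 0.04 over all genes. Other cell types also ran with the score. The median r was 0.45 for 4 genes of enteric neurons and glia, 0.43 for 10 of fibroblasts and smooth muscle and 0.35 for 8 of the type 2 circuit. It was 0.31 for 5 of megakaryocytes and platelets and 0.30 for 17 myeloid markers. For 8 of mast cells and basophils it was 0.28, and for 11 of enteroendocrine cells 0.21. The neuronal gene Elavl4 and the glial gene Sox10 each had a median level of 0 normalised counts and are not among the 4 genes of neurons and glia. The median was 0.27 for 8 genes of the intestinal epithelium, 5 of them above 0. The lowest of these, Cdx2 and Cdx1, which encode homeobox factors of intestinal identity and were picked after their values were seen, had an r of -0.74 and -0.65. The part of these cells in the score was not tested.

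Avil had its own neighbours, looked up after its low correlation with the others was seen. Over the 43 tumours it ran closest with Fer1l4 (r = 0.93, rho = 0.88), Ush1g (r = 0.93, rho = 0.88), Prr18 (r = 0.92, rho = 0.89), Eya2 (r = 0.92, rho = 0.85) and Basp1 (r = 0.92, rho = 0.82), and none of these 5 is in the lists of tuft cell genes. For Fer1l4 the r was 0.76 in the female and 0.95 in the male mouse, and 0.92 without the 2 tumours most distant in Avil. In the 6 libraries with Avil under 1000, Fer1l4 lay between 38.8 and 206 (median 48.3), and in the other 57 between 77.3 and 1476 (median 665). Ush1g had a median of 2.86 in those 6 libraries and of 477 in the other 57. Fer1l4 and Ush1g had been picked for their r with Avil over these same tumours. Their lower values where Avil was low therefore followed from that choice and are no separate result. In the same 6 libraries Alox5ap (median 143) and Dclk1 (median 242) were near their levels elsewhere (106 and 259), while the medians of Trpm5 (271 against 501), Pou2f3 (34.5 against 61.9), Ptgs1 (179 against 372) and Gnat3 (0 against 4.74) were lower and Il25 was at 0 in all 6. All 6 are of the male mouse and 5 of them are undivided tumours, while the other 57 are of both mice. Il25 was at 0 in 24 of 33 libraries of the male mouse, and Gnat3 in 7 of its 13 undivided tumours. The part of mouse and class in this contrast was not tested. By list, the median r with Avil was 0.52 for 4 genes of enteric neurons and glia, 0.51 for 10 of fibroblasts and smooth muscle, 0.40 for 8 of the intestinal epithelium, 0.39 for 5 of megakaryocytes and platelets, 0.27 for 8 of the type 2 circuit, 0.21 for 8 of mast cells and basophils and -0.05 for 17 myeloid markers. For 11 enteroendocrine genes it was -0.44, with all 11 below 0. Some lists were mixed. Of the intestinal epithelium 6 of 8 genes were above 0, while Cdx2 and Cdx1 had an r of -0.70 and -0.69 with Avil. The type 2 list ran from -0.50 to 0.80 (5 of 8 above 0) and the myeloid list from -0.48 to 0.71 (8 of 17 above 0).

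**Figure D5:**
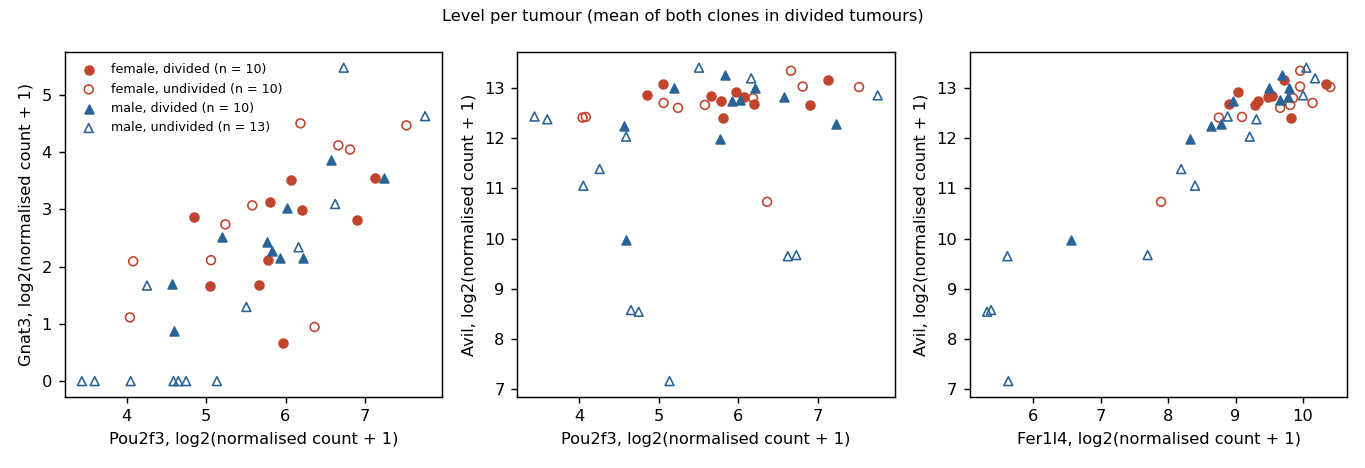
Levels per tumour on the log2(normalised count + 1) scale, Gnat3 against Pou2f3 (left), Avil against Pou2f3 (middle) and Avil against Fer1l4 (right), with filled symbols for divided and open ones for undivided tumours of the female (circles) and male (triangles) mouse. Gnat3 was higher where Pou2f3 was higher (r = 0.76), while Avil was spread widely at any level of Pou2f3 (r = 0.18) and tracked Fer1l4 closely (r = 0.93).

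Avil also ran with a technical measure. Its level was the lower the higher that of Rn18s, a gene of ribosomal RNA (r = -0.70, rho = -0.75, n = 43 tumours). For Ptgs1 this r was -0.46, for Dclk1 -0.33 and for Trpm5 -0.25, and for Pou2f3 and Alox5ap it was -0.09 and 0.09. The sum of the normalised counts of a library had an r of -0.42 with Avil and of 0.43 with Trpm5. The part of either measure in the differences of Avil was not tested.

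The genes were among the more variable of the table. Over the 63 libraries the SD of log2 values was 1.48 for Gnat3, whose values were near 0, and of the 6 tested genes it was highest for Avil, with 1.10 for Pou2f3, 0.98 for Dclk1, 0.95 for Trpm5, 0.79 for Ptgs1 and 0.74 for Alox5ap, against a median of 0.47 over 16489 genes. The SD of Avil exceeded that of 90.1% of the genes and that of Alox5ap 69.7%. From the lowest to the highest library Avil spanned 87.5-fold and Alox5ap, at the other end of the 6, 12.2-fold.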

How the data were processed

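RNA was measured in 63 libraries. The table as deposited by the authors holds a signal for each gene: per the methods, they trimmed reads (Trimmomatic 0.39) and estimated gene counts with Salmon 1.9.0 (Gencode M30, GRCm39), and scaled these between libraries in a way that is not given in the sources used here. The values are not whole numbers, so no count model was fitted.

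Groups came from the labels, and the major and minor classes from the study's source data, matched by sample title. Which undivided tumours the study counted as monoclonal was not in the labels, so all 23 were used. Tumour 22 of the female mouse has 2 segment labels and entered no segment comparison. Limma 3.58.1 (R 4.3.3, eBayes with trend) was fitted to log2(value + 1), with tumour as a block between clones, which share a tumour number, and mouse as a covariate otherwise. For some of the comparisons it was tried on these same values with labels shuffled and known changes put into randomly drawn genes. Tests are two-sided.

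Members and lists were chosen with earlier results of these data known. Named were all 9 genes, called genes of the other lists, the 3 lowest p of the further tuft cell genes in each comparison and of the type 2 list where its p was lowest, and the 10 genes most like the mean z score. Single genes that these rules or lists would name are not reported here. Of the remaining lists, single genes were named after their values were seen. Alternatives covered pseudocounts of 0.1 and 5, filter, normalization, trend, block, covariates, mice, segments, clones and leaving out each tumour or library.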

Additional observations from a re-analysis of the deposited data

Results flagged for a closer look

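The spread within groups was examined for each of the 9 genes in the 5 groups of 10 libraries (clone class by mouse; the 13 undivided tumours of the male mouse were too many for the test), which makes 45 groups. A library was picked out where its gap to the nearest other library exceeded Dixon's 95% critical value on the log2 scale. This happened in 6 groups, where chance gives about 1 in 20 groups. In the male mouse, the minor clone of tumour 19 was far below the other minor clones in Trpm5 (28.9, next 272) and in Ptgs1 (47.7, next 193), and its major clone was far below the other major clones in Avil (779, next 3717). Undivided tumour 5 of the female mouse was low in Avil (1698, next 5424), as was, in the same mouse, the minor clone of tumour 28 in Ptgs1 (248, next 410). The major clone of tumour 28 of the male mouse was high in Il25 (3.72, next 1.05), a gene listed at 0 in 8 of these 10 libraries.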

How the results depend on the processing

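Under all alternatives tried, leave-one-out fits included, 0 of the 6 tested genes was called in any of the 8 comparisons (lowest adjusted p 0.125, and 0.107 with a library left out, both for Avil in undivided tumours against minor clones). Without the replicate block between major and minor clones the number was also 0 (Avil -0.012, SE 0.24, adjusted p = 0.988), while all genes called went from 188 to 0. The calls of Plcg2, Chgb, Tph1 and Neurog3 there were thus lost without the block and in the female mouse alone, where 0 genes were called. Over 390 values of single genes under alternatives 26 changed direction. For major against minor clones these were, in the female mouse alone, Dclk1 (-0.26) and Alox5ap (0.085), in the male mouse alone Pou2f3 (0.043), Avil (0.23) and Ptgs1 (0.26), and with tumours of SI10 and SI20 of 1 segment label Avil (0.061) and Ptgs1 (0.042). For undivided tumours against minor clones Alox5ap turned with libraries scaled to the same sum (-0.081), in the female mouse alone (-0.14) and with segment as a covariate (-0.062), and Dclk1 in the male mouse alone (0.25). Against major clones Trpm5 (-0.028) and Alox5ap (-0.033) turned with libraries scaled to the same sum, and Pou2f3 (0.098), Alox5ap (-0.22) and Ptgs1 (0.17) in the female mouse alone. Between segments of undivided tumours Trpm5 (0.068) and Ptgs1 (-0.54) turned in the female and Dclk1 (0.31) in the male mouse alone. Between segments of divided tumours Dclk1 (-1.27), Trpm5 (-0.14), Avil (-0.14) and Ptgs1 (-0.11) turned in the female and Pou2f3 (0.42) in the male mouse alone, Dclk1 in major clones only (-0.26) and Pou2f3 in minor clones only (0.28). None of these values was called, and the cause was not tested.

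Leaving out 1 tumour or library at a time, 66 of 1338 values changed direction. Between major and minor clones Avil ran from -0.11 to 0.027, Alox5ap from -0.11 to 0.066 and Ptgs1 from -0.11 to 0.032. For undivided tumours, Alox5ap ran from -0.058 to 0.11 against minor clones, and Trpm5 from -0.029 to 0.17, Alox5ap from -0.010 to 0.16 and Ptgs1 from -0.19 to 0.0044 against major clones. Between segments of divided tumours Dclk1 ran from -0.29 to 0.33, Trpm5 from -0.089 to 0.61 and Ptgs1 from -0.16 to 0.39. The clone difference between mice ran from -0.023 to 0.32 for Trpm5, and between segments from -0.46 to 0.0075 for Avil and from -0.040 to 0.18 for Ptgs1. The segment difference between kinds of tumour ran from -0.12 to 0.54 for Dclk1, from -0.21 to 0.12 for Alox5ap and from -0.39 to 0.15 for Ptgs1.

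The number of all genes called, used only as background, moved more. It was 85 with no filter, 344 with quantile normalization, 292 with libraries scaled to the same sum, 89 without trend, 48 by the signed-rank test, 0 and 33 in the female and male mouse alone and 33 with 1 segment label between major and minor clones (25 without tumour 20 of the male to 859 without tumour 19 of the female mouse). Undivided tumours against minor clones gave 0 in the female mouse alone and 128 with segment as a covariate (274 to 959 with a library left out), and against major clones 0 to 2 (0 to 25). Between segments it was 18 with a pseudocount of 0.1 and 0 and 46 in the female and male mouse alone for undivided tumours (5 to 53), and 0 and 6 in the mice alone and 12 in minor clones only for divided tumours (13 to 215). Values come from 2 mice and from normalised counts of unknown depth, which limits Gnat3, Gfi1b and Il25 most. These were left out by the filter on low values. Without it they gave, between major and minor clones, -0.29 (adjusted p = 0.745), 0.20 (adjusted p = 0.825) and -0.38 (adjusted p = 0.521).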
